A study of Mus musculus with 6 samples.

Results

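AP-1 is the collective name of dimeric transcription factors built from the FOS, JUN, ATF and BATF proteins. The 9 genes described here are Fos, Fosb, Fosl1, Fosl2, Jun, Junb, Jund, Atf3 and Batf. They were chosen as the genes of the array whose symbol in the platform annotation is 1 of these names, and they make up 9 of 18193 genes measured. Together they have 13 probe sets, and each gene is described by its brightest probe set (by mean log2 signal over the 6 arrays), while the other 4 probe sets served as a check. A signal is the brightness of a probe set on a linear scale. Signals under 47.6, the pooled 40th percentile of all probe sets, are called below the floor and were set to it on the log2 scale. All 9 members reached the floor on at least 1 array, but Fosb was below it on both arrays of activated cells and Fosl1 on all 4 arrays of the other populations, so each genotype comparison measured 8 members.

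The study asked how loss of Furin, a protease that cuts precursor proteins in the secretory pathway, affects CD4 T cells. Control mice carried Fur flox/flox alleles without Cre, and the mice called Furin cKO here carried the same floxed alleles with CD4 cre, a Cre recombinase driven by the Cd4 promoter and so active in most T cells from their time in the thymus. All were C57BL/6 animals of 10 to 11 weeks, and neither the number of animals behind a sample nor any pooling is given in the sources used here. Naive cells (CD4+CD62L+CD44-) were stimulated for 2 days on plates coated with antibodies to CD3 and CD28, each at 5 µg/ml, and are called activated cells. Memory cells (CD4+CD62L-CD44+) and regulatory cells (CD4+CD25+FoxP3+) were sorted, and the labels name no stimulation for them. Each of the 6 combinations of population and genotype is 1 array, with no replicate.

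FOS proteins bind DNA mainly with a JUN partner, whereas JUN proteins can also pair with each other, with ATF3 and with BATF. The FOS and JUN dimers prefer the sequence TGANTCA, and ATF3 dimers prefer related sites of the cyclic AMP response element. In T cells, signals from the antigen receptor and CD28 pass through MAP kinases to switch on Fos and Jun within minutes as immediate early genes. Their products act with NFAT at cytokine genes such as Il2, and BATF with a JUN partner acts with IRF4 at composite sites in effector and regulatory T cells.

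Several facts of the arrays bear on these genes. Activated arrays had 49.4% and 49.8% of their probe sets at the floor or brighter, and the other 4 arrays between 62.6% and 67.4%. Furin itself read 515.8 on the control and 468.3 on the cKO array of activated cells, 547.2 and 410.0 in regulatory cells, but 647.4 and 2202.9 in memory cells, where the array labelled Furin cKO was the brighter. The annotation does not say which part of the transcript this probe set reads, so Furin does not settle the labels, and each memory fold here has the direction that the labels give it; with the labels exchanged, its sign would turn. Foxp3, which defines regulatory cells, read 50.4 and 33.8 on the regulatory arrays and 1358.2 and 1116.4 on the memory arrays, against the labels. Other markers of regulatory cells went with the labels, as Ikzf2 read 13900.9 and 15968.2 on the regulatory arrays and 9418.9 and 8212.6 on the memory arrays. The hybridisation control bioB, a spike-in normally added in a fixed amount, averaged 906 and 1021 in activated cells, 5829 and 4496 in memory cells and 2795 and 2635 in regulatory cells, so population and hybridisation conditions cannot be told apart. The ratio of the 3′ to the 5′ actin probe set, a sign of RNA quality, was 1.22 and 1.24 in activated, 1.93 and 1.56 in memory and 1.35 and 1.36 in regulatory cells (control and cKO), so it moved with population and, in memory cells, with genotype; its part in the results was not tested. In bulk samples of this kind, fewer cells of a type and less RNA per cell cannot be told apart either.

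The promoters of the members that moved together are shown first, since some of the factors that switch these genes on bind near the start site. RefSeq (GRCm38.p6) gave a start site for 8 of the 9 members. The 250 bases before it are printed for Fos and Jun, which moved together between genotypes. They are also printed for Fosl2 and Atf3, which moved together between populations by their brightest probe sets. The other Fosl2 probe set did not move with Atf3. Fos lies at chr12:85473640-85473889 on the plus strand, Jun at chr4:95052223-95052472 on the minus strand, Fosl2 at chr5:32136222-32136471 on the plus strand and Atf3 at chr1:191183334-191183583 on the minus strand. Each is written 5′ to 3′ on the gene's own strand and ends at the base before the start. Capitals mark matches, on either strand, to TGACG, TGACNTCA or a MEF2 site.
Fos: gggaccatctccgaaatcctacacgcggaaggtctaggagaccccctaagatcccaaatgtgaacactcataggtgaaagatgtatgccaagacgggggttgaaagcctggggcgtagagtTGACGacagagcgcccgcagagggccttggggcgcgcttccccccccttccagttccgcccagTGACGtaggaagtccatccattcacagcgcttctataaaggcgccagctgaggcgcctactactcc
Jun: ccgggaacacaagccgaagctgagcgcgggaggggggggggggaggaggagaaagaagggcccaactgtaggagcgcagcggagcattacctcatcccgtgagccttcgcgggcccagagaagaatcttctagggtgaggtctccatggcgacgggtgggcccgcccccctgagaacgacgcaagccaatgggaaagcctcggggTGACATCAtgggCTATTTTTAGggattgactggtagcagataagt
Fosl2: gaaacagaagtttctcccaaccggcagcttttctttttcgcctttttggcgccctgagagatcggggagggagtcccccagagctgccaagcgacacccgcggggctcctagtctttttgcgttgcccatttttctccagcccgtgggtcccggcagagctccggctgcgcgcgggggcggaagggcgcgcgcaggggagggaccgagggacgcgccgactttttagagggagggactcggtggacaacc
Atf3: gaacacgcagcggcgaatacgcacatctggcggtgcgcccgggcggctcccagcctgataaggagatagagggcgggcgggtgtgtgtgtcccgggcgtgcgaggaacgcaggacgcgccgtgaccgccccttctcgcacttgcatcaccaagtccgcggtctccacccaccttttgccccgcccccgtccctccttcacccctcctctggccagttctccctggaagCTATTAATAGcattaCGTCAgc

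The Fos window held TGACG, the core of a cyclic AMP response element, at 129 to 125 and again at 66 to 62 bases before the start. The Jun window held TGACATCA, which fits TGACNTCA, at 45 to 38 bases before the start and a MEF2 site, matched on both strands, at 33 to 24. The Atf3 window held a MEF2 site at 22 to 13 bases and TGACG, read on the opposite strand as CGTCA, at 7 to 3. The Fosl2 window held none of these. TGACG was found in 5 of the 8 members with an entry (Fos, Fosb, Junb, Atf3 and Batf) and in 17.8% of all 32851 promoter windows of that length. TGACNTCA was found in 1 of 8 members and 7.49% of all windows, and MEF2 sites in 2 of 8 and 2.92%. TGANTCA, the AP-1 site itself, was found in 0 of 8 and 6.75%, TGACGTCA, which contains TGACG, in 0 of 8 and 1.55%, and the CArG box bound by SRF in 0 of 8 and 1.47%. These matches describe letters in a window and say nothing of binding. Bases further than 250 before the start were not searched, so a count of 0 does not mean that a gene lacks the site.

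Fos and Jun were the members with the largest differences between genotypes. By the labels, the difference ran in opposite directions in memory and regulatory cells. With the memory labels exchanged, both genes would be lower on the cKO array in both populations. Fos (Entrez 14281), the founding FOS protein, read 1388.7 on the control and 1245.5 on the cKO array of activated cells, 628 and 4468.6 in memory cells, and 1427.4 and 478.5 in regulatory cells. The memory array labelled cKO was the brightest of the 6 and the regulatory array labelled cKO the dimmest, while the activated pair lay close together. On the log2 scale, cKO over control was -0.16 in activated cells, 2.83 in memory cells (7.12-fold higher) and -1.58 in regulatory cells (2.98-fold lower).

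Jun (Entrez 16476), the founding JUN protein and partner of all FOS proteins, read 346.6 and 477.4 in activated cells, 393.8 and 2441.2 in memory cells, and 814.5 and 209.5 in regulatory cells, each pair as control and cKO. Its order over the 4 sorted arrays was the same as that of Fos: memory cKO, regulatory control, memory control, regulatory cKO. The log2 values of cKO over control were 0.46, 2.63 (6.20-fold higher) and -1.96 (3.89-fold lower). A second Jun probe set read 261.3 and 385.5 in activated, 95 and 418.1 in memory and 249.8 and 135.6 in regulatory cells, which gave 0.56, 2.14 (4.40-fold higher) and -0.88 (1.84-fold lower), so that the direction was the same in each population but the regulatory difference fell short of 2-fold. Over the 6 arrays the log2 signals of Fos and Jun had a Pearson correlation of 0.917, a description in which 2 points share each population and in which memory and regulatory arrays set the range.

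**Figure D1:**
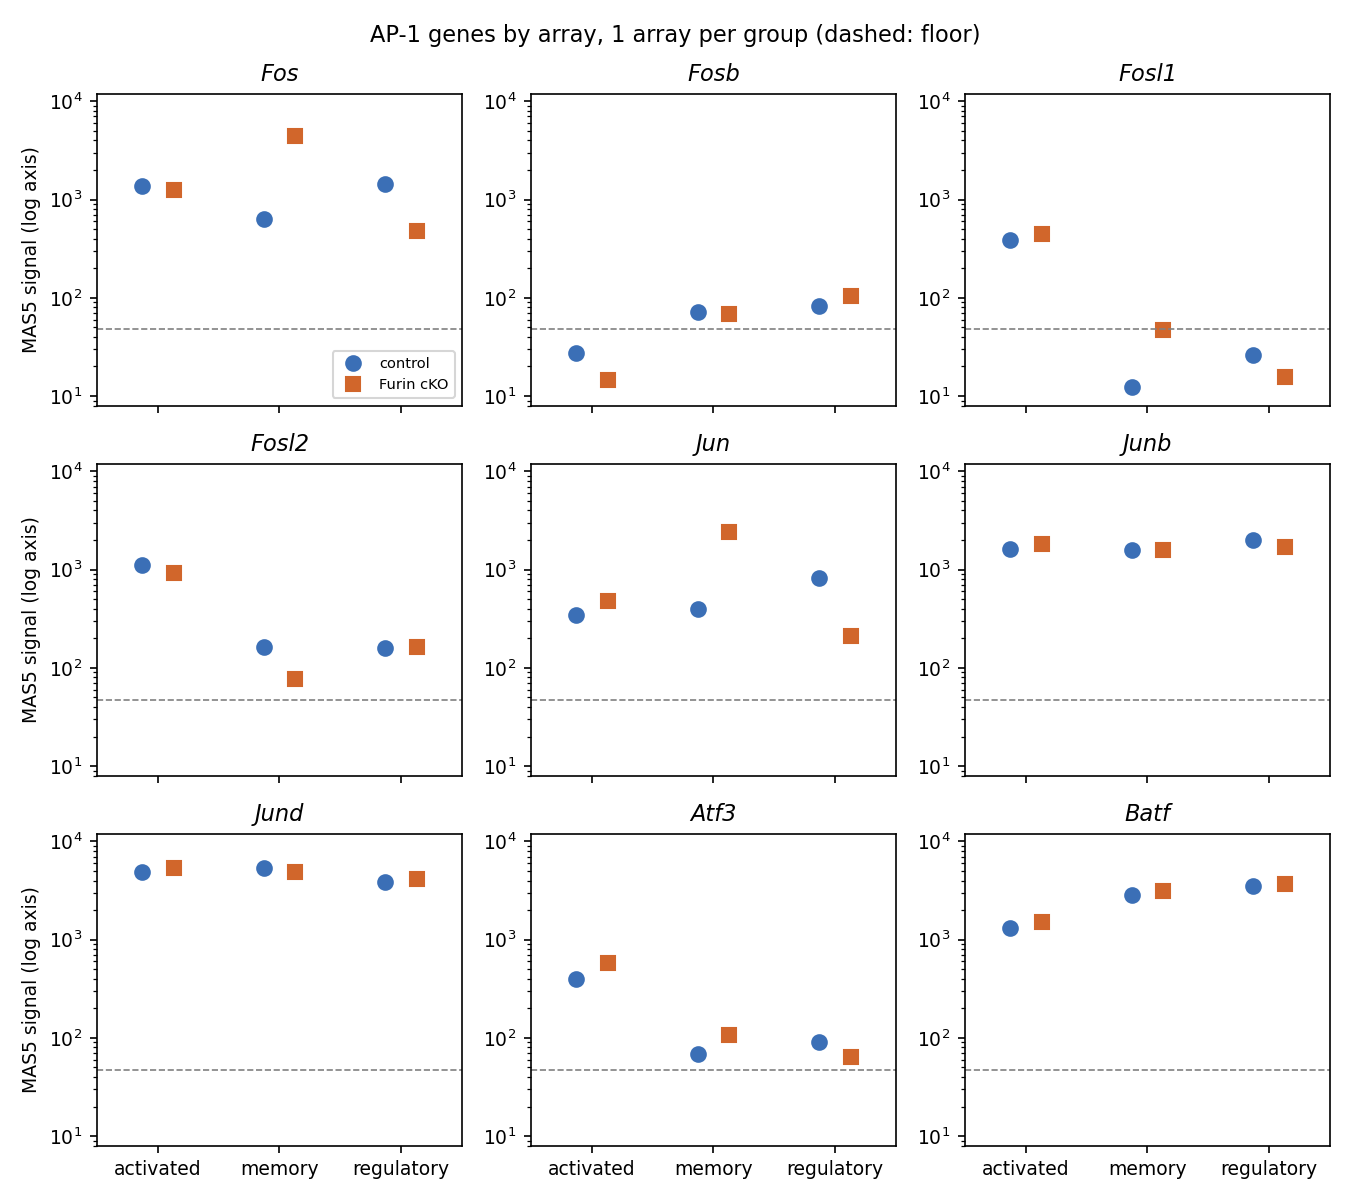
Signal of the 9 AP-1 genes on each of the 6 arrays, with 1 panel per gene, a log axis for the signal, the populations along the horizontal axis and the 2 genotypes as separate symbols; the dashed line is the floor at a signal of 47.6. Fos and Jun are parted by genotype label in opposite directions in memory and regulatory cells, Fosl1, Fosl2 and Atf3 are high on both activated arrays, and Junb and Jund stay level.

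**Figure D2:**
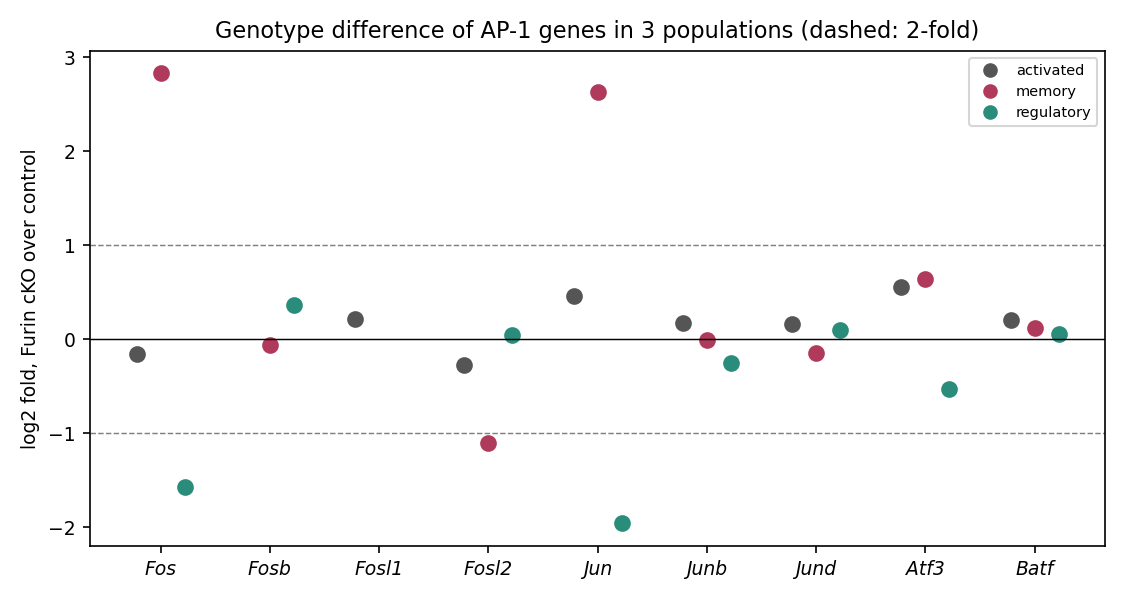
Log2 difference between the Furin cKO and the control array (vertical axis) for each AP-1 gene (horizontal axis), 1 point for each population in which the gene was measured, with dashed lines at 2-fold in each direction. By the labels, Fos and Jun pass 2-fold upward in memory cells and downward in regulatory cells, Fosl2 passes it downward in memory cells, and no gene passes it in activated cells.

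With 1 array per group, a genotype fold has no replicate check, and 2-fold was used as the line for a difference. In memory cells, 3 of the 8 measured members passed 2-fold, beside 9.26% of 14235 genes. On the higher side, 2 were at least 2-fold higher on the array labelled cKO (Fos and Jun), where 5.62% of all genes were, and 1 was at least 2-fold lower (Fosl2), where 3.64% of all genes were. In regulatory cells, 2 of 8 passed, beside 5.26% of 14590 genes: 0 were higher, against 3.14%, and 2 were lower (Fos and Jun), against 2.12%. In activated cells 0 of 8 passed 2-fold, beside 0.762% of 10756 genes (0.39% higher and 0.372% lower). The median member differed by 0.19, 0.05 and -0.11 on the log2 scale in activated, memory and regulatory cells, beside medians of 0.00, -0.01 and -0.01 over all genes. The memory arrays differed most from each other: the log2 signals of 9446 genes correlated at 0.962 in memory cells, 0.981 in regulatory cells and 0.992 in activated cells, a correlation across genes, which are not independent replicates.

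Higher in memory and lower in regulatory cells by at least 2-fold each was a pattern shared by 34 of 13131 genes measured in both (0.259%), while the reverse was shared by 22 (0.168%). Of the 34, only 6 were at or above the floor on all 4 arrays, and 4 of these read at least 144.8, the pooled 60th percentile, on every one: Fos, Jun, Igha and Borcs7. Ordered by the smaller of the 2 log2 differences, a ranking chosen after the values were seen, Jun was 2nd and Fos 4th. Igha encodes the heavy chain of IgA, made by plasma cells. It makes up most of the summed signal of the 4 plasma cell markers, which went from 4393.8 to 19547.6 in memory cells and from 17418.3 to 9296.3 in regulatory cells. Of the other plasma cell markers, Jchain, the joining chain of IgA, read 374.4 and 3184.6 in memory and 2190.5 and 1314.9 in regulatory cells. Prdm1 read 1166.4 and 1312.1, and 2007.9 and 1968.9, and Sdc1 read 98.8 and 71.1, and 49.8 and 65.1, so neither passed 2-fold. The summed signal of 7 granulocyte markers went from 771.9 to 7458.2 in memory cells and from 1278.6 to 2711 in regulatory cells, while that of 6 dendritic cell markers went from 15942.4 to 7700.5 and from 2349.5 to 2827.1. Of 7 B cell markers, 3 were at least 2-fold higher on the memory array labelled cKO (Ms4a1, Pax5 and Cd79a) and 0 lower, and in regulatory cells 1 was higher (Pax5) and 0 lower. Their sum, from 15638.9 to 13239.8 and from 18636.1 to 16184.3, ran the other way and was mostly Ighm, which read 12987 and 9364.8, and 16773.2 and 13927.8. The part of these other cells in the Fos and Jun values was not tested.

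**Figure D3:**
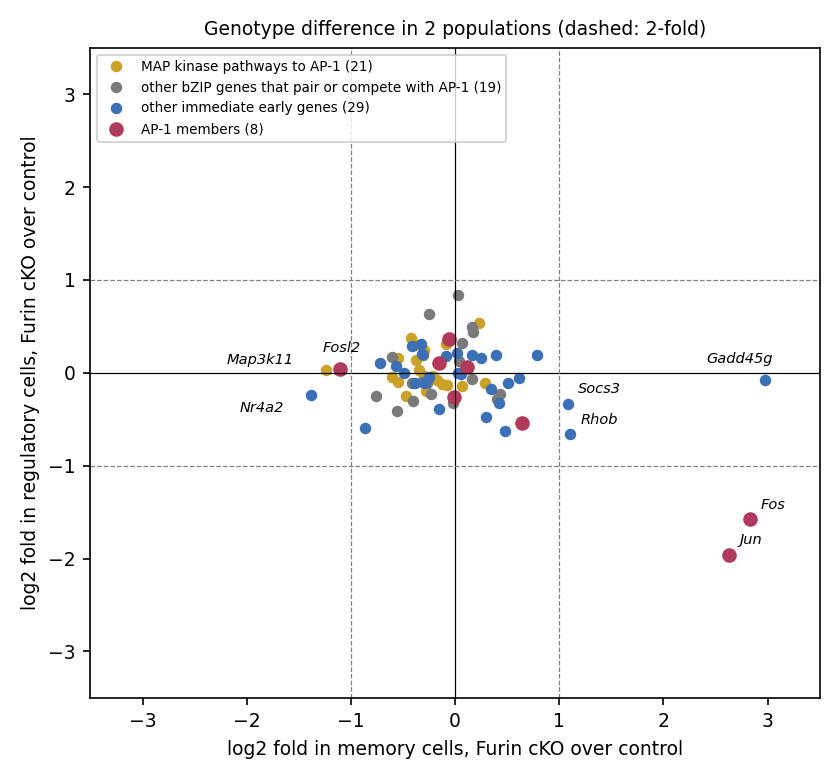
Log2 difference between the cKO and control array in memory cells (horizontal axis) against that in regulatory cells (vertical axis), 1 point per gene, for the 8 AP-1 members, 29 other immediate early genes, 21 MAP kinase pathway genes and 19 other bZIP genes measured in both; dashed lines mark 2-fold. Fos, at 2.83 and -1.58, and Jun, at 2.63 and -1.96, lie in the lower right, and no other gene plotted is past 2-fold in both populations.

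Among 29 other immediate early genes measured, 3 were at least 2-fold higher on the memory array labelled cKO (5.62% of all genes were), 1 was lower (3.64% of all genes), and the median was 0.03 on the log2 scale. The 3 were Gadd45g, a stress sensor that activates p38 and JNK signalling (250.2 to 1960.3, 7.83-fold), Rhob, a small GTPase (415.8 to 892.7, 2.15-fold), and Socs3, an inhibitor of cytokine signalling (1552 to 3283.9, 2.12-fold). Nr4a2, an orphan nuclear receptor induced by antigen receptor signals, was at least 2.62-fold lower, since its cKO signal was below the floor. In regulatory cells 0 of 29 passed 2-fold, beside 5.26% of all genes, and the median was -0.05. Egr1, which like Fos is a textbook target of SRF and ERK signalling, read 4522.2 and 3403.6 in memory cells and 4024.3 and 4931.2 in regulatory cells, that is, a small difference opposite in direction to that of Fos in each. Dusp1, the phosphatase that switches off JNK and p38, read 1680.7 and 2337.8 in memory cells and 2847.7 and 1850.3 in regulatory cells, differences in the direction of Fos but below 2-fold.

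The counts for the kinases and factors upstream of Fos and Jun stand beside 0.762% of all genes past 2-fold in activated cells, 9.26% in memory cells and 5.26% in regulatory cells. Of 21 measured MAP kinase pathway genes, 1 was at least 2-fold lower in activated cells (Map2k6, a kinase that activates p38, 236.2 to 89, 2.65-fold) and 1 in memory cells (Map3k11, an upstream kinase of JNK, 836.5 to 355.3, 2.35-fold), and 0 in regulatory cells. In memory cells 18 of the 21 had a negative difference, with a median of -0.29 beside -0.01 over all genes. Some other lists leaned the same way and some did not. Differences were negative for 12 of 20 other bZIP genes, 7 of 10 MAP kinase phosphatases and 5 of 6 SRF and partner genes. They were negative for 13 of 20 T cell genes with AP-1 sites and 6 of 9 genes for turnover of AP-1 proteins and mRNA. Among other immediate early genes 13 of 29 were negative. So were 6 of 12 factors that bind DNA with AP-1, 6 of 14 BATF-dependent genes and 4 of 11 heat shock and cold-inducible genes. Among SRF and its ternary complex partners, Elk1 was the only 1 of 6 past 2-fold, from 56.2 to 151.1 in memory cells (2.69-fold higher), and Srf itself read 1476.8 and 1359.3. Of 10 MAP kinase phosphatases, 1 passed 2-fold, Dusp16 in memory cells (332.1 to 164.3, 2.02-fold lower). Of 11 heat shock and cold-inducible genes, which respond to temperature and protein stress, 2 were higher in memory cells: Hspa1a from 447.4 to 1844.7 and Hspa1b from 4992.6 to 11686.2. In regulatory cells Hsph1 (1775.8 to 5036.1) and Hspb1 (273.8 to 618.7) were higher and the cold-inducible Cirbp lower (2709.3 to 719.7). There 9 of the 11 had a positive difference, with a median of 0.59 on the log2 scale beside -0.01 over all genes. Positive differences were found for 7 of the 11 in memory cells (median 0.17) and 8 in activated cells (median 0.08). In activated cells, where Fos differed by 1.11-fold, Hspa1b was 2.26-fold higher. The part of stress or handling in the Fos and Jun values was not tested.

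Over the 3 populations, the genotype term of the linear model fitted with limma, which asks whether the difference ran 1 way in all of them, found 0 of 9 members and 0.0% of 15811 genes after Benjamini-Hochberg adjustment, with 444 genes at an unadjusted p under 0.05. It was 0.37 ± 0.90 (SE, n = 6 arrays) on the log2 scale for Fos, with a limma Benjamini-Hochberg adjusted p of 0.915, and 0.38 ± 0.92 for Jun. For Fosl2 it was -0.45 ± 0.26, with an adjusted p of 0.819. The standard error reflects the spread of genotype differences over populations and holds no spread of animals. The term and its standard error would change with the memory labels exchanged.

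Fosl1, Fosl2 and Atf3 were high in activated cells and low in the sorted populations. Fosl1 (Entrez 14283, also called Fra1), a FOS protein without the transactivation domain of Fos, read 384.3 and 444.8 in activated cells, and 12.4, 47.5, 26.2 and 15.7 on the other 4 arrays, all below the floor. It was at least 8.69-fold higher in activated than in memory cells, a log2 difference of 3.12 ± 0.14 (SE, 2 arrays a population) against the floor (limma, Benjamini-Hochberg adjusted p 0.00188), and at least 8.69-fold higher than in regulatory cells (adjusted p 0.00193). Its 4 sorted arrays were all set to the floor, so they have no spread and the SE and p rest on clamped values. With the floor at the 20th percentile the difference from memory cells was 4.04 ± 0.70 (adjusted p 0.0241), with no floor 4.09 ± 0.76 (0.0387) and, at a 60th percentile floor, 1.51 ± 0.13 (0.000957). The other Fosl1 probe set was below the floor on all 6 arrays.

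Fosl2 (Entrez 14284, also called Fra2), its close relative, read 1103.3 and 914.4 in activated cells, 164 and 76.1 in memory cells, and 159.7 and 164.1 in regulatory cells. The activated and sorted arrays did not overlap, and the memory array labelled cKO was the dimmest of the 6. The level was 8.99-fold higher in activated than in memory cells (log2 3.17 ± 0.32, limma, Benjamini-Hochberg adjusted p 0.00373) and 6.20-fold higher than in regulatory cells (2.63 ± 0.32, adjusted p 0.00576). Fosl2 was also the only member at least 2-fold lower on the memory array labelled cKO, by 2.16-fold. Both results depend on the probe set: the other one, which read 72.2, 92, 62.3, 101.3, 125.4 and 144.8 over the 6 arrays, gave 0.70 in place of -1.11 for the memory genotype difference, 0.04 for activated minus memory cells and -0.73 for activated minus regulatory cells. The mean of both probe sets gave 0.95 for the last of these.

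Atf3 (Entrez 11910), a stress-induced factor that pairs with JUN and often represses, read 396.4 and 584.4 in activated cells, 68.7 and 107.2 in memory cells, and 91.9 and 63.4 in regulatory cells. It was 5.61-fold higher in activated than in memory cells (log2 2.49 ± 0.35, limma, Benjamini-Hochberg adjusted p 0.00771) and 6.31-fold higher than in regulatory cells (2.66 ± 0.35, adjusted p 0.00681). The size moved with the settings: it was 1.73 in both contrasts with the floor at the 60th percentile, which lies above 4 of its 6 signals, and 3.23 and 3.49 with cyclic loess, all of them called. Its genotype differences, 0.56, 0.64 and -0.54 on the log2 scale in activated, memory and regulatory cells, followed the signs of Jun but none reached 2-fold.

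Batf and Fosb were the members lower in activated cells. Batf (Entrez 53314), which lacks a transactivation domain and supports Th17 and effector programmes with IRF4, read 1323 and 1521.4 in activated cells, 2866.3 and 3112.8 in memory cells, and 3543 and 3693.6 in regulatory cells. The 3 populations did not overlap, and the 2 genotypes lay within 1.15-fold of each other in each. Activated cells were 2.11-fold below memory cells (log2 -1.07 ± 0.14, limma, Benjamini-Hochberg adjusted p 0.00616) and 2.55-fold below regulatory cells (-1.35 ± 0.14, adjusted p 0.00397). Regulatory minus memory cells was 0.28, with a 95% interval of -0.09 to 0.65 and an adjusted p of 0.346.

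Fosb (Entrez 14282), an immediate early relative of Fos, was below the floor on both activated arrays at 27.6 and 14.5, and read 71.4 and 68.4 in memory cells and 81.6 and 104.8 in regulatory cells. These are dim signals near the floor. Activated cells were at least 1.94-fold below regulatory cells (log2 -0.96 ± 0.17, limma, Benjamini-Hochberg adjusted p 0.015), a call lost with quantile normalization (adjusted p 0.0695) and with cyclic loess (0.0622). Against memory cells the difference was at least 0.55 in size (-0.55 ± 0.17 with the activated arrays set to the floor, adjusted p 0.0641). With the floor at the 20th percentile it was -1.80 (adjusted p 0.0365) against memory and -2.21 (0.0243) against regulatory cells, both called.

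Junb and Jund differed little between the arrays. Junb (Entrez 16477), which in T cells also pairs with BATF, read 1637.2 and 1842.1 in activated cells, 1589.3 and 1577.7 in memory cells, and 2006.6 and 1680.8 in regulatory cells. Jund (Entrez 16478), the JUN protein found in resting cells, read 4834.1 and 5409.9, 5359 and 4830.4, and 3887.4 and 4169.7. For Junb the activated and regulatory arrays overlapped and both memory arrays lay below the other 4, and for Jund the regulatory arrays did. Activated minus memory cells was 0.13 for Junb (95% interval -0.32 to 0.59) and 0.01 for Jund (-0.41 to 0.43), and activated minus regulatory cells was -0.08 and 0.35 on the log2 scale, with limma Benjamini-Hochberg adjusted p-values of 0.755 and 0.149.

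**Figure D4:**
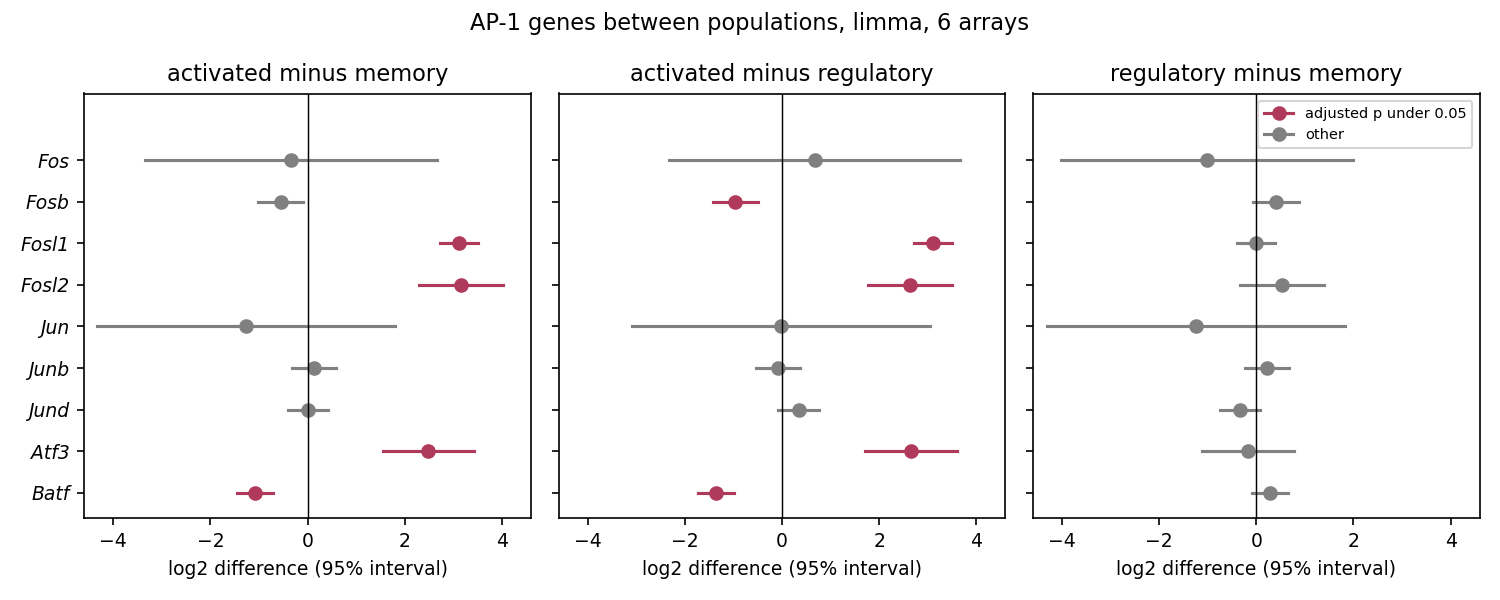
Log2 differences (horizontal axis) of activated minus memory, activated minus regulatory and regulatory minus memory cells for the 9 members, as points with 95% intervals from limma over 6 arrays; red points had an adjusted p under 0.05 and grey points did not. Fosl1, Fosl2 and Atf3 lie between 2.49 and 3.17 in the panels of activated cells, Batf lies at -1.07 and -1.35, the intervals of Fos and Jun are the widest, and no point is red between regulatory and memory cells.

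In all, 4 of 9 members passed between activated and memory cells, beside 44.3% of 15811 genes: 3 were higher in activated cells, where 17.3% of all genes were, and 1 was lower, where 26.9% were. Against regulatory cells 5 of 9 passed, beside 44.6%: 3 were higher (18.1% of all genes) and 2 lower (26.5%). The counts over members thus say little beyond what genes at large did in these contrasts, and the values of single members are the result. Between regulatory and memory cells 0 of 9 members and 0.0% of all genes passed in limma, with 3359 genes at an unadjusted p under 0.05. For Fos and Jun the intervals were wide: activated minus memory cells was -0.35 for Fos (95% interval -3.35 to 2.66) and -1.27 for Jun (-4.34 to 1.80), intervals that cover differences of several fold in both directions. The calls rest on 2 arrays a population. Without either activated array, Atf3 and Batf no longer passed against memory cells, and without either memory array Atf3 did not, which left 2 to 3 of the 4 calls. Against regulatory cells 1 of the 5 calls, Fosl1, passed without either activated array, and 0 passed without either regulatory array, where no gene of the array passed. The median of all genes lay at -0.21 and -0.23 in these contrasts and near 0 after quantile normalization. That scaling changed the split of genes higher and lower against memory cells from 2743 and 4260 to 3249 and 3071, and against regulatory cells from 2865 and 4193 to 3492 and 2835.

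Other bZIP genes, which pair or compete with AP-1 proteins, were split between populations. Of 22 measured, 5 were higher (17.3% of all genes were) and 10 lower (26.9%) in activated than in memory cells, and 6 were higher (18.1%) and 9 lower (26.5%) than in regulatory cells. Bach2, a repressor that competes for AP-1 sites, read 6158.1 and 6191.8 in activated cells, 1222.5 and 722.8 in memory cells, and 2135.7 and 1800.3 in regulatory cells (log2 2.72 and 1.65, limma Benjamini-Hochberg adjusted p 0.0028 and 0.00802). Maf, which drives Il10 and Il4, was below the floor in activated cells at 20.5 and 16 and read between 5763.7 and 8122 on the other 4 arrays. No bZIP gene of this list passed 2-fold between genotypes in any population.

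Of 12 measured factors that bind DNA together with AP-1, 2 were higher (17.3% of all genes were) and 8 lower (26.9%) in activated than in memory cells. Irf4, the partner of BATF, read 10010.7 and 9382.8 in activated cells and between 1042.6 and 1718.6 on the other 4 arrays (log2 3.05 against memory and 2.50 against regulatory cells, limma Benjamini-Hochberg adjusted p 0.00201 and 0.00218), the opposite direction to Batf. Gata3 was lower in activated cells by 2.87 and 2.98. Irf8 was 2.37-fold lower on the memory array labelled cKO (4521.2 to 1909.9), the only factor of this list past 2-fold between genotypes. It is also strongly expressed in dendritic cells, whose summed markers were lower on that array. The part of dendritic cells in the Irf8 value was not tested.

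Of 14 measured genes known to depend on BATF, 8 were lower (26.9% of all genes were) and 1 higher (17.3%) in activated than in memory cells, and 8 were lower (26.5%) and 0 higher (18.1%) than in regulatory cells. The 1 was Ctla4, an inhibitory receptor, at 11924.6 and 10316.5 against 3339.9 and 2934. Maf was among the lower ones, and is shared with the bZIP list.

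Some T cell genes whose control regions carry known AP-1 sites passed 2-fold between genotypes in activated and memory cells, and most did not. This list was chosen with earlier results of these data known, so its counts describe the listed genes and are no test of AP-1 targets. In activated cells 5 of 16 measured were at least 2-fold higher on the cKO array (0.39% of all genes were) and 0 lower, with a median of 0.40 beside 0.00 over all genes. They were Ifng (256.6 to 1695.2, 6.61-fold), Ccl3 (2649.1 to 5901.8), Il3 (265.1 to 551.9), Csf2 (562.3 to 1163.4) and Ccl4 (1283.9 to 2624), all cytokines and chemokines. No AP-1 member passed 2-fold on those arrays. In memory cells 4 of 20 were higher (5.62% of all genes) and 2 lower (3.64%): Ifng was 4.20-fold and Gzmb 3.90-fold higher, Il2 (424.2 to 1465.1) and Ccl3 (107.5 to 291.6) were higher too, whereas Il4 was 3.29-fold and Mmp9 2.10-fold lower. In regulatory cells 0 of 21 passed 2-fold, beside 3.14% of all genes higher and 2.12% lower. The median there was -0.15, beside -0.01 over all genes. Nkg7, a granule gene that NK cells and cytotoxic T cells share, read 1499.3 and 4775.6 in activated, 6635.9 and 10513.7 in memory and 685.8 and 667.5 in regulatory cells. Of the other NK cell markers measured, Ncr1 and Klra8 were below the floor on both activated arrays, where Eomes read 170.1 and 186.8. In memory cells Klra8 read 2.3 and 103.9 (at least 2.18-fold higher), Ncr1 75.8 and 89.3, and Eomes 261.6 and 175.8. In regulatory cells Klra8 read 4.7 and 85.8, Ncr1 134.4 and 34 (at least 2.82-fold lower), and Eomes 244.9 and 266.7. The summed signal of these 4 markers went from 1685.7 to 4979.3 in activated, 6975.6 to 10882.7 in memory and 1069.8 to 1054 in regulatory cells. Nkg7 made up most of it on each array. The part of such cells in these values was not tested.

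The genes most like each member over the 6 arrays differed between members. For Fos they were Ppfibp2, Cd109 and Ndrg4 (Pearson r 0.991, 0.965 and 0.937 over 6 arrays, among 8056 genes), and for Jun Ctnnbip1, Acyp2 and Sypl2 (0.974, 0.965 and 0.962). For Fosl2 they were Rrn3, Taf1d and Slc35f2, for Atf3 Dennd11, Nfs1 and Otulin, and for Batf Col6a2, Plekha4 and Rc3h2, with r between 0.996 and 0.999. For Fosb they were Vwa5b2, Nrg4 and Zfp60. For Junb they were Rpl39l, Rint1 and Il1f5, and for Jund Atp8b4, Tagln2 and Map2k4, with r between 0.932 and 0.973. Junb and Jund themselves spanned less than the log2 range of 1 asked of the ranked genes, so their matches follow small differences. Fosl1 reached the floor on 2 arrays and was not ranked. Among the members, Fosl1 and Atf3 (0.976), Fosl1 and Fosl2 (0.958) and Fosb and Batf (0.937) were most alike, and Fosl1 and Batf (-0.969) most opposed. Each of these pairs holds Fosl1, above the floor only on the 2 activated arrays, or Fosb, above it only on the other 4. With the rest set to the floor, these values mainly reflect the split between activated and sorted arrays. The points share the populations, and 6 points are few.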

How the data were processed

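Biotinylated cRNA from total RNA of 6 samples was hybridised to Affymetrix arrays, per the labels' protocols. The deposited values are linear intensities from MAS5 (per the submitters' processing notes), whose version and settings the sources used here do not give. On each deposited array the mean intensity after trimming 2% at each end was 500, so the arrays share 1 scale. Of 45101 probe sets, 34945 carry 1 symbol in the platform annotation, and these gave 18193 genes; all 9 members matched RefSeq by Entrez identifier.

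Intensities below the pooled 40th percentile of non-control probe sets (47.6) were raised to it before log2, and comparisons in which both arrays of a gene lay below it were dropped. Folds with 1 side below the floor are lower bounds, written "at least". Genotype folds compare 1 array with 1 array, have no test, and were called at 2-fold or more. Population contrasts and a genotype term came from limma 3.58.1 in R 4.3.3 (factors population and genotype, 6 arrays, 2 residual degrees of freedom, empirical Bayes), with Benjamini-Hochberg adjustment over 15811 genes and a threshold of 0.05. The fit was tested on simulated data. Its p-values rest on the spread of genotype differences over populations, which is not the spread between animals. For arrays, their number limits the precision.

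The text names the 9 members; up to 4 genes of each of 10 pathway lists, those with the largest and smallest values, others being named to complete a count or as background and chosen after their values were seen; and the 3 genes most correlated with each member that reached the floor on at least 3 arrays, among genes with a log2 range of at least 1. A further 14 marker lists were summed by array. The members and lists were chosen with earlier results of these data known. Alternatives were quantile normalization, cyclic loess, floors at the 20th and 60th percentile and none, other probe sets and their mean, population as the only factor, an intensity trend, and leaving out arrays; leaving out both memory arrays and leaving out genes exactly at the floor were added after seeing the data.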

Additional observations from a re-analysis of the deposited data

Results flagged for a closer look

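Fos and Jun stand out because each differed between genotypes in opposite directions in memory and regulatory cells. On the log2 scale, the difference between the array labelled Furin cKO and its control was 2.83 for Fos in memory cells and -1.58 in regulatory cells. For Jun it was 2.63 in memory cells and -1.96 in regulatory cells. The difference between the populations was not tested, since each group is 1 array, and the memory direction rests on labels that the Furin signal does not bear out. Exchanging the memory labels would make both genes lower on the cKO array in both populations.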

How the results depend on the processing

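No paired analysis was possible because the labels carry no replicate numbers and each group is 1 array. Fos and Jun kept the direction of their memory and regulatory differences under quantile normalization and cyclic loess, and Jun kept it with its other probe set. Fos has 1 probe set. On the probe sets used, the signals of Fos and Jun were never below 209.5. The highest floor was 144.8, so the floors tried could not change these differences. With its other probe set Jun was no longer past 2-fold in regulatory cells, which left 1 member there in place of 2. With its other probe set Fosl2 turned from -1.11 to 0.70 in memory cells, and its activated minus regulatory difference turned from 2.63 to -0.73 (limma, Benjamini-Hochberg adjusted p 0.0356). Its memory difference was -0.18 with a floor placed at the 60th percentile, and -0.20 with the mean of its probe sets. Leaving out 1 array at a time left 2 to 3 of the 4 members called between activated and memory cells and 0 to 1 of the 5 called between activated and regulatory cells; without both memory arrays the latter remained 5 in number. Jun in activated minus regulatory cells, never called, went from -0.02 to 0.41 with quantile normalization, 0.27 with cyclic loess and 0.79 with its other probe set. Counts over all genes moved too. In memory cells, 800 genes were past 2-fold higher and 518 lower, but 2855 and 2014 without a floor, 2219 and 1530 with the lower floor, 258 and 221 with the higher one and 496 and 345 with the mean of probe sets. In regulatory cells 458 and 309 became 2175 and 1767, 1757 and 1450, 39 and 39, and 258 and 180 under these settings, 260 and 259 with quantile normalization and 220 and 201 with cyclic loess. In activated cells 42 and 40 became 1675 and 1665, 472 and 445, 17 and 9, 25 and 19, and with cyclic loess 115 and 83. Without a floor the limma calls were 1777 and 3768 against memory and 1865 and 3863 against regulatory cells. Without 1 array they were 671 to 1574 higher and 1264 to 2604 lower against memory cells, and 0 to 870 and 0 to 1353 against regulatory cells. Between regulatory and memory cells 0 genes passed, but 184 higher and 264 lower did with the higher floor, 268 and 385 with population as the only factor, 47 and 108 with an intensity trend, 9 and 52 without genes exactly at the floor and 4 and 30 with the mean of probe sets, none of them a member. The cause of these changes was not tested.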
